A study of Rattus norvegicus with 5 samples.

Results

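The microRNA (miRNA) profile of rat hearts at 15 days after transverse aortic constriction (TAC) was set against that of sham-operated hearts. TAC narrows the aortic arch, so that the left ventricle pumps against a raised pressure, and the comparison asks how the miRNAs of such hearts stood relative to sham at this time. The members were all 678 probes for rat miRNAs, with 2712 of the 12312 spots on each array and 4 spots per probe, out of 2672 probe identifiers on the slide. They were chosen by their name on the array and not by any measured value, though with earlier results of these data known. The whole series has 5 arrays, and 2 of them were compared here.

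Each array was hybridized with Hy3-labelled total RNA from the hearts of 5 male SD rats, aged 6 to 8 weeks. The rats of the TAC day 15 array had a constriction placed on the aortic arch between both carotid arteries and were sampled 15 days later. The sham rats had the same operation without constriction. The label of the sham sample gives 5 days after surgery, whereas the header of its raw column carries day 15, so a match in time between these arrays cannot be settled from the sources used here. No genetic change was present in either group, and every array pools the RNA of its 5 hearts, so there was 1 sample per group and no spread between hearts. The error given with each ratio is the standard error (SE) over spots, which is technical, and no test across samples was possible. In whole-heart RNA, fewer cells of a type and less miRNA per cell cannot be told apart.

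MiRNAs are RNAs of about the length of the sequences printed here that guide Argonaute proteins to messenger RNAs, mostly through their seed, and lower the stability and translation of those messages. Each is cut from a hairpin whose other strand, written here with a star as on the array, is usually the less abundant product. In the heart, miR-1, miR-133a and the miRNAs hosted by myosin genes (miR-208, miR-208b and miR-499) are characteristic of cardiomyocytes, and pressure overload is known to shift many others, miR-21 among them.

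The first sequences shown are those of the let-7 family, because let-7c had the highest ratio of all and its relatives, which share the seed, did not follow it. Sequences are mature rat miRNAs from RefSeq (build GRCr8), written 5′ to 3′, with the seed (bases 2 to 8) in capitals.
let-7c: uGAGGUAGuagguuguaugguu
let-7a: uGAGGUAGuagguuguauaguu
let-7b: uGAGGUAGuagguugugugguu
let-7d: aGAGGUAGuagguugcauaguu
let-7e: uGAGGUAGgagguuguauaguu
let-7f: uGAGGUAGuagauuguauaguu
let-7i: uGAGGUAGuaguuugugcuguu
miR-98: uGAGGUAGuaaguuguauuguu
Counted from 1 at the 5′ end, with the base of let-7c first, let-7a differed from let-7c by G19A alone and let-7b by A17G alone. The others differed by 2 to 4 bases, let-7f by G12A and G19A and let-7e by U9G and G19A.

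The next sequences are those of the other miRNAs that read 2-fold or more above sham and had an entry in the RefSeq table. MiR-1 is shown with them because miR-3571 is transcribed from the opposite strand of the same place.
miR-3571: uACACACUucuuuacauuccaua
miR-1: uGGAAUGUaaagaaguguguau
miR-181a-2*: aCCACCAAccguugacugu
miR-450a*: uAUUGGGAacauuuugcauaa
miR-183*: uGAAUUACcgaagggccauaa
miR-294: cUCAAAAUggaggcccuaucu
miR-331*: gGUCUUGUuuggguuuguu
MiR-3571 lies at chr18:2160340-2160362 on the plus strand and miR-1 at chr18:2160339-2160360 on the minus strand, both inside the gene Mib1, and 21 bases of one are the reverse complement of the other. MiR-181a-2* lies at chr3:43025646-43025664 on the plus strand, inside Nr6a1. MiR-331* lies inside Vezt and miR-294 inside Nlrp12. Let-7c-1*, miR-675 and miR-150 are named only.

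The miRNAs that read 2-fold or more below sham are shown last. The 2 members of the miR-125 family have the same seed and the same bases after it as far as the middle of the molecule.
miR-125b-5p: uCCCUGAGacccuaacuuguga
miR-125a-5p: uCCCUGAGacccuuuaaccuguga
miR-338: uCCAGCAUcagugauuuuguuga
miR-190: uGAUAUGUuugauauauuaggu
miR-378: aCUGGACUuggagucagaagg
MiR-338 lies at chr10:105796345-105796367 on the minus strand, inside Aatk. MiR-190 lies inside Tln2 and miR-378 inside Ppargc1b, the gene of a coactivator of mitochondrial metabolism. Of the 678 array names, 255 were matched to a RefSeq mature sequence.

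Detection required a mean background-subtracted signal over 4 spots higher than the array's floor, set from empty and negative-control spots at 30.6 units on sham and 46.4 units on TAC day 15. Detection on both arrays was reached by 201 miRNAs, on TAC day 15 alone by 6, on sham alone by 35 and on neither by 436. The 201 had a median signal of 740 units on sham and 737 units on TAC day 15, over a median background of 104 units on sham and 1.38 times that on TAC day 15. On TAC day 15, spots in blocks 1 to 18 of the slide read lower than their copies in blocks 19 to 36, with median signals of 364.5 and 909 units, whereas the sham array had 715 and 753.5 units. Each miRNA has 2 spots in either set, so its ratio was also computed from each set alone, scaled within the set. Ratios below are log2 TAC day 15 to sham after quantile scaling over rat miRNA spots, which places the median of all 201 at -0.01. Scaling to 47 synthetic spike-in RNAs would shift the median of all to 0.91, so each ratio is relative to the bulk of the miRNAs and not an absolute amount. The image scale ends at 65535 units, which 4 rat spots met on each array, all of miR-208 or miR-22.

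Against sham, most miRNAs of the day 15 hearts were close to the diagonal. Of the 201, 72.6% were within 1.5-fold of sham, and the quartiles of the log2 ratio were -0.43 and 0.33. There were 99 above sham (49.3%) and 102 below (50.7%). At 2-fold or more stood 15 miRNAs (7.46%), 10 of them higher on TAC day 15 (4.98%) and 5 lower (2.49%). All 4 TAC day 15 spots lay above all 4 sham spots, on the normalized scale, for 44 of the 201 (21.9%), and below them for 7 (3.48%). Past 2-fold in both block sets, in the same direction, were 5 miRNAs on the higher side (2.49%) and 1 on the lower side (0.498%).

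**Figure D1:**
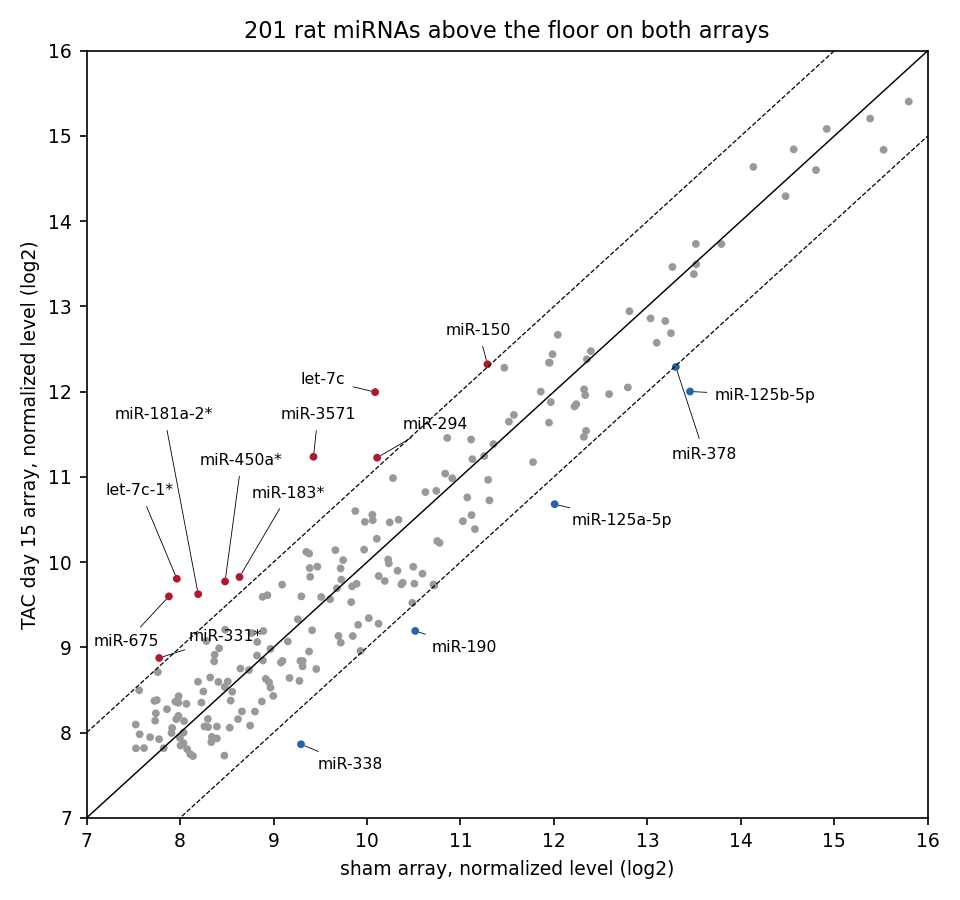
Normalized level (log2) of the 201 miRNAs detected on both arrays, sham on the horizontal axis and TAC day 15 on the vertical axis, each point the mean of 4 spots. The solid line marks equal levels and the dashed lines 2-fold, with 10 miRNAs above (red) and 5 below (blue); with spike-in scaling 87 would lie above the upper line and 0 below the lower.

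Let-7c, a member of the family that promotes differentiation and represses growth genes, had the highest ratio, 1.91 ± 0.52. Its 4 spots gave 1248, 2857, 370 and 825 units on sham and 3563, 4493, 3248 and 4242 units on TAC day 15. Every day 15 spot was above every sham spot, but the sham spots ran over a wide range, and the ratio was 1.52 in blocks 1 to 18 and 2.27 in blocks 19 to 36. The opposite strand of 1 of its hairpins, let-7c-1*, read 1.84 ± 0.19. It was dim on sham, at 81, 93, 115 and 116 units. On the normalized log2 scale its spots stood at 7.86, 7.94, 8.03 and 8.04 on sham and 9.55, 9.43, 10.11 and 10.12 on TAC day 15. The spots did not overlap, and the block sets gave nearly the same ratio, 1.79 and 1.87.

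MiR-3571, which lies antisense to miR-1, read 1.81 ± 0.11. Its spots gave 535, 719, 637 and 676 units on sham and 2298, 2106, 1847 and 1747 units on TAC day 15. They were well apart in both block sets, at 2.39 and 1.25. MiR-1 itself, the miRNA that restrains cardiomyocyte growth and one of the brightest on the array, read -0.03 ± 0.14.

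MiR-675, which is cut from the imprinted long noncoding RNA H19, read 1.72 ± 0.10. Its spots gave 75, 90, 107 and 68 units on sham and 736, 760, 532 and 593 units on TAC day 15, with no overlap. MiR-675* was not detected on either array. MiR-181a-2*, from the opposite arm to miR-181a, read 1.43 ± 0.18. Its spots stood at normalized log2 levels of 8.16, 8.09, 8.13 and 8.39 on sham and 9.37, 9.32, 9.93 and 9.88 on TAC day 15, with day 15 signals of 483 to 892 units. Its block sets gave 1.44 and 1.39, whereas miR-181a read -0.50 ± 0.62.

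The other 5 on the higher side were closer to 2-fold. MiR-450a*, from an X-linked cluster with miR-322 and miR-503, read 1.29 ± 0.09, with 179, 186, 265 and 298 units on sham and 761, 809, 840 and 723 units on TAC day 15. MiR-183*, whose hairpin is best known from sensory organs, read 1.19 ± 0.07, with 248 to 310 units on sham and 717 to 907 units on TAC day 15. Neither overlapped between the arrays, and both were under 2-fold in blocks 19 to 36, at 0.84 and 0.98.

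MiR-294 belongs to a cluster known in mouse from embryonic stem cells and read 1.12 ± 0.09, with 1020 to 1069 units on sham and 1732 to 2180 units on TAC day 15. MiR-331* read 1.10 ± 0.07, with 52 to 85 units on sham and 262 to 345 units on TAC day 15. Their spots did not overlap either, and each was just under 2-fold in blocks 19 to 36, at 0.98 and 0.96. MiR-150, a lymphocyte miRNA whose known target in mouse is Myb, read 1.03 ± 0.43. Its spots gave 1697, 2242, 4111 and 4290 units on sham and 3631, 2691, 8852 and 8592 units on TAC day 15. These overlapped, and miR-150 was the only 1 of the 10 whose normalized spots did. Its ratio was 1.24 in blocks 1 to 18 and 0.80 in blocks 19 to 36.

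**Figure D2:**
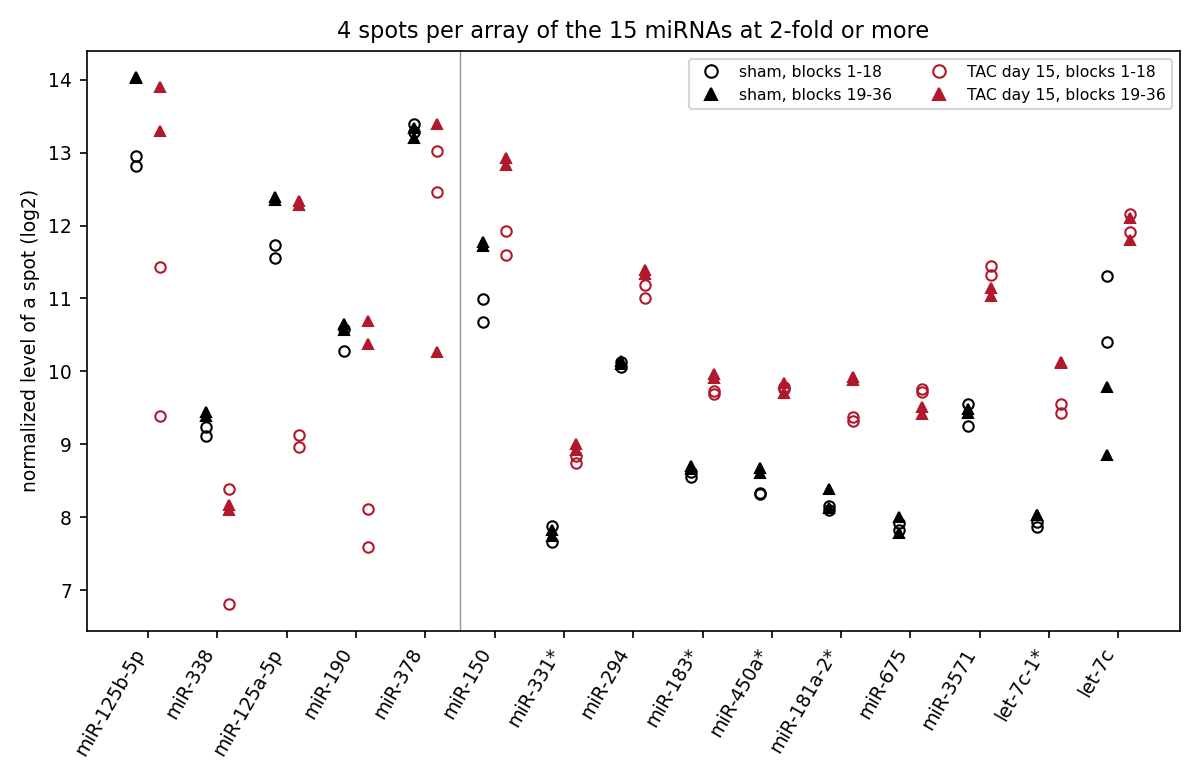
Normalized level (log2) of each of the 4 spots per array for the 15 miRNAs at 2-fold or more, sham in black and TAC day 15 in red, circles for blocks 1 to 18 and triangles for blocks 19 to 36. To the right of the vertical line, 9 of the 10 higher miRNAs have no overlap of spots; to the left, only miR-338 of the 5 lower ones has none.

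Of the 5 on the lower side, miR-338 had the smallest SE and read -1.43 ± 0.37. It is an intronic miRNA of Aatk known for its part in oligodendrocyte maturation. Its spots stood at normalized log2 levels of 9.11, 9.23, 9.44 and 9.39 on sham and 8.39, 6.80, 8.09 and 8.17 on TAC day 15, where the signals were 166, -59, 92 and 112 units. These day 15 signals were near the floor of 46.4 units and 1 was negative, and the median of spots gave a ratio of -1.18. Every day 15 spot was below every sham spot, and the ratio was -1.25 in blocks 1 to 18 and -1.58 in blocks 19 to 36. With spike-in scaling it was -0.60, which is under 2-fold.

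Both members of the miR-125 family read lower, with overlapping spots. MiR-125b-5p, which in mouse and human is known to repress Lin28 and apoptosis genes, read -1.45 ± 1.07, with 10469, 9238, 27439 and 27894 units on sham and 519, 2249, 11948 and 18639 units on TAC day 15. MiR-125a-5p read -1.33 ± 0.97, with normalized log2 levels of 11.56, 11.73, 12.35 and 12.39 on sham and 8.96, 9.13, 12.29 and 12.34 on TAC day 15. In both, the 2 day 15 spots in blocks 1 to 18 were the lowest. In blocks 19 to 36 those of miR-125a-5p were near sham, while those of miR-125b-5p were below it. In the 2 sets the ratios of miR-125b-5p were -2.03 and -0.72 and those of miR-125a-5p were -2.27 and -0.42.

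MiR-190, hosted by the talin gene Tln2, had the same pattern. It read -1.32 ± 0.79, with 1190, 1492, 1479 and 1606 units on sham and 20, 98, 1178 and 1458 units on TAC day 15. Blocks 1 to 18 gave -2.25 and blocks 19 to 36 gave -0.40, so the low spots again lay in the first set. MiR-378, known to restrain cardiomyocyte growth, read -1.01 ± 0.70, with 13964, 13344, 13857 and 12409 units on sham and 6122, 9712, 1066 and 13179 units on TAC day 15. The day 15 spot at 1066 units was far below the other 3, and the ratio was -0.27 in blocks 1 to 18 and -1.65 in blocks 19 to 36, where that spot lies.

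**Figure D3:**
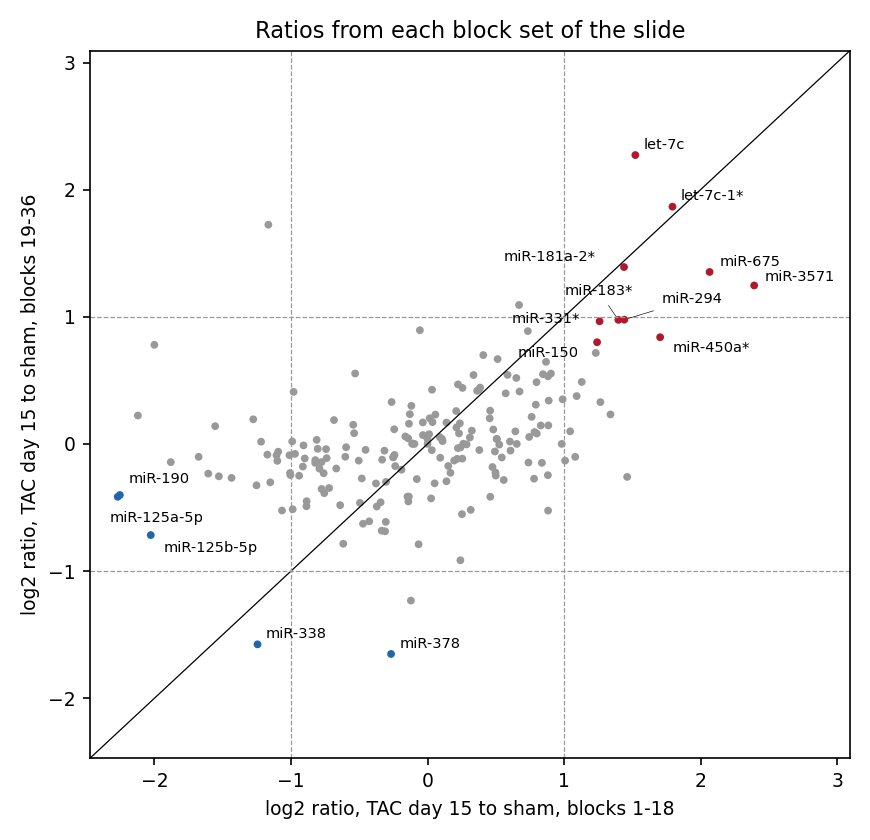
Log2 ratio of TAC day 15 to sham for the 201 miRNAs from the spots of blocks 1 to 18 (horizontal axis) and of blocks 19 to 36 (vertical axis), each scaled within its block set, with the 10 higher miRNAs in red and the 5 lower ones in blue. The solid line marks equal ratios and the dashed lines 2-fold; miR-338 is the 1 blue point past 2-fold on both axes, against 5 red points, and 63 of the 201 ratios had opposite signs in the 2 sets.

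The position on the slide bears on the whole list. In blocks 1 to 18 alone, 19 miRNAs stood 2-fold or more above sham and 25 below, against 7 and 3 in the later blocks alone. On TAC day 15, 79 of the 201 miRNAs were 2-fold or more apart between their own block sets, against 8 on sham. The median SD over the 4 spots was 0.45 on TAC day 15 and 0.12 on sham, and 0.32 on both once the block sets were scaled separately. With the sets scaled separately the count was again 15, 10 higher and 5 lower, and 14 of them were the same miRNAs. MiR-378 dropped under 2-fold at -0.96 and miR-24-2*, at -0.99 before, passed it at -1.01. Let-7c, miR-3571 and miR-181a-2* stayed 2-fold or more above sham in all 14 alternative settings, and let-7c-1* and miR-675 in all but a stricter floor of 10 MAD, which they did not pass on sham.

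On the other TAC arrays, which share the sham array with this comparison, the 15 miRNAs had several courses. Let-7c gave 1325 units on sham and 7189, 7456, 3887 and 1638 units on TAC days 5, 10, 15 and 20, for ratios of 3.84, 2.64, 1.91 and 0.43. MiR-3571 gave 642 units on sham and 3384, 2143, 2000 and 1049 units on the TAC arrays. Let-7c had its highest ratios on days 5 and 10 and its lowest on day 20. In signal not scaled between arrays, miR-3571 was highest on day 5 and, of the TAC arrays, lowest on day 20. MiR-675 gave 85.0 units on sham and 520, 356, 655 and 284 units on the TAC arrays, with ratios of 2.11, 1.26, 1.72 and 0.57. Its day 15 ratio lay between those of days 5 and 10.

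Let-7c-1* and miR-181a-2* stood apart on day 15 only. Let-7c-1* had normalized log2 levels of 7.96 on sham and 7.80, 8.05, 9.81 and 8.50 on TAC days 5, 10, 15 and 20, with signals of 101 units on sham and 775 units on day 15. MiR-181a-2* had levels of 8.19 on sham and 7.91, 7.95, 9.62 and 8.54 on the same days, with a signal of 687 units on day 15. Among the 201, they were the only miRNAs whose day 15 level was 2-fold or more from each of the other 4 arrays, by 1.30 and 1.09 on the log2 scale from the nearest of them. The nearest was the day 20 array for both. MiR-150 gave 3085 units on sham and 1045, 1015, 5942 and 4392 units, so that its ratios in order of day were -1.15, -1.24, 1.03 and 0.79.

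All 5 on the lower side had a negative ratio on each TAC array. MiR-125b-5p gave 18760 units on sham and 1215, 2516, 8339 and 13071 units on the TAC arrays, and its ratio was -0.27 on day 20. MiR-338 gave 568 units on sham and -91.0, 96.0, 77.8 and 595 units on the TAC arrays. Its day 20 signal was thus not below that of sham, and its ratio of -0.08 there was close to sham. MiR-125a-5p was still at -0.99 on day 20. In level, 5 of the 15 lay between days 10 and 20 on day 15, and 119 of all 201 did. The 15 were chosen by their day 15 ratio, which makes a level between other arrays less likely, so these shares cannot be compared.

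**Figure D4:**
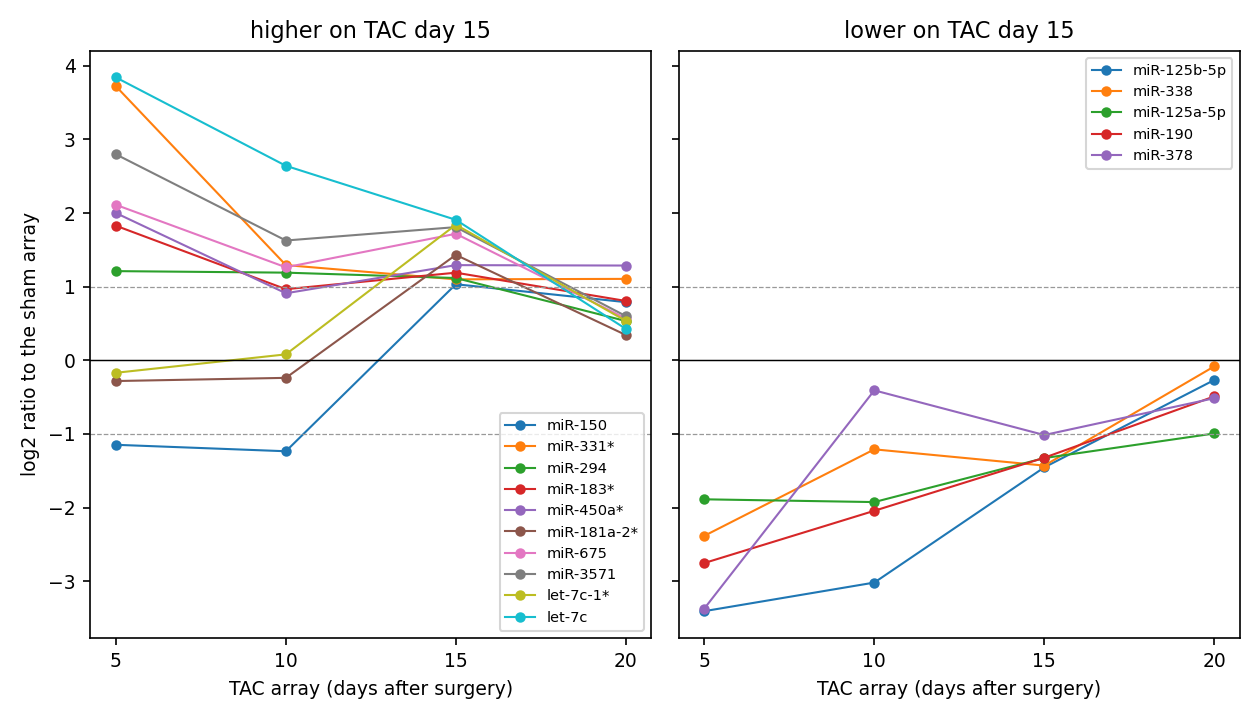
Log2 ratio to the same sham array (vertical axis) of the 15 miRNAs on the TAC arrays of days 5, 10, 15 and 20 (horizontal axis), those higher on day 15 on the left and those lower on the right, dashed lines at 2-fold. Lines join single arrays. Let-7c-1* and miR-181a-2* are near 0 on days 5 and 10 and high on day 15, and miR-150 is below sham on days 5 and 10.

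For miRNAs above the floor on 1 of the arrays only a bound against the floor can be given. On TAC day 15 alone, miR-221* was at least 2.37-fold higher, with 9, 25, 21 and 23 units on sham and 43, 359, 348 and 316 units on TAC day 15. It was the only one of the 6 whose bound met 2-fold. MiR-770*, miR-375, miR-7a-2* and miR-196b* had bounds of 1.61-fold, 1.51-fold, 1.39-fold and 1.36-fold higher.

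On sham alone were 35 miRNAs, 18 of them with a bound above 0 on the log2 scale and 0 with a bound of 2-fold or more. On TAC day 15 alone, all 6 had a bound above 0. The floor was higher on TAC day 15 (46.4 units) than on sham (30.6 units), so the counts on each side are not alike. MiR-31, known from mesenchymal cells, was at least 1.86-fold lower on TAC day 15, with sham spots from 165 to 428 units and no spot above 0 on TAC day 15. The next bounds were those of miR-136 (1.47-fold), let-7a-1*/let-7c-2* (1.40-fold), miR-342-3p (1.34-fold) and miR-221 (1.26-fold). MiR-221, a miRNA of vascular cells, and its opposite strand miR-221* were thus above the floor on different arrays.

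Among the muscle-enriched miRNAs, 7 of 8 probes were detected on both arrays, none was at 2-fold, and the median ratio was 0.16 beside -0.01 over all 201. Of all 201, 7.46% were at 2-fold or more, so counts of 0 or 1 in this and the other short lists are near that share. MiR-208b-3p, hosted by the beta myosin heavy chain gene Myh7 that is known to increase in loaded hearts, read 0.60 ± 0.24, with 1725, 1827, 2148 and 2251 units on sham and 1798, 1742, 3112 and 3668 units on TAC day 15. Its spots were apart only after scaling. MiR-133a, which restrains cardiomyocyte growth, read 0.50 ± 0.06, but its signals of 30006 units on sham and 30619 units on TAC day 15 were nearly equal, and blocks 19 to 36 gave 0.00. MiR-208, hosted by the alpha myosin heavy chain gene Myh6, read -0.69 ± 0.59 and -0.08 in blocks 19 to 36, with 1 sham spot and 2 day 15 spots at the ceiling. MiR-499 read -0.38 ± 1.02, miR-206 0.20 ± 0.17 and miR-133b 0.16 ± 0.07. No muscle miRNA was past 2-fold in the same direction in both block sets. Quantile scaling gives spots of equal rank the same value on every array. A ratio near 0 of a very bright miRNA may therefore show only an unchanged rank, and not closeness to sham. Scaling to spike-ins would place the median of the list at 1.06, near that of all miRNAs.

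Of miRNAs known from earlier work to rise in pressure-overloaded hearts, 15 of 20 probes were detected on both arrays, with a median of -0.25. At 2-fold or more, 0 stood above sham and 1, miR-125b-5p, below. Over all 201 those shares were 4.98% and 2.49%, so the counts in a list of 15 are near them. MiR-21, the fibroblast-rich miRNA best known in this setting, read 0.08 ± 0.12, with 2468, 2408, 2554 and 2542 units on sham and 1758, 1682, 2167 and 2321 units on TAC day 15. Its signal, which is not scaled between arrays, was 4273 units on day 5 and 4931 units on day 10, above every spot of sham and day 15. MiR-195, which induces hypertrophy in mouse hearts, read -0.62 ± 0.52, and miR-23a, a miRNA of the hypertrophic response, read -0.74. The spots of miR-23a gave 9376, 12570, 13720 and 4298 units on sham and 839, 1920, 13114 and 16273 units on TAC day 15, below sham in blocks 1 to 18 and, with a ratio of 0.78, above it in blocks 19 to 36.

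Of miRNAs known to fall, all 19 probes were detected on both arrays, and the median was -0.03. At 2-fold or more, 1 stood above sham (miR-150) and 1 below (miR-378). Over all 201 those shares were 4.98% and 2.49%, so these counts are near them too. In the miR-29 family, which represses collagens, the 3 members read -0.57 ± 0.79, 0.20 ± 0.20 and -0.09 ± 0.05 for miR-29a, miR-29b and miR-29c. The 6 probes of the miR-30 family, repressors of matrix genes, ran from -0.36 to 0.39 with a median of 0.04. With spike-in scaling the medians of the lists known to rise and to fall would be 0.62 and 0.84, below the 0.91 of all miRNAs.

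**Figure D5:**
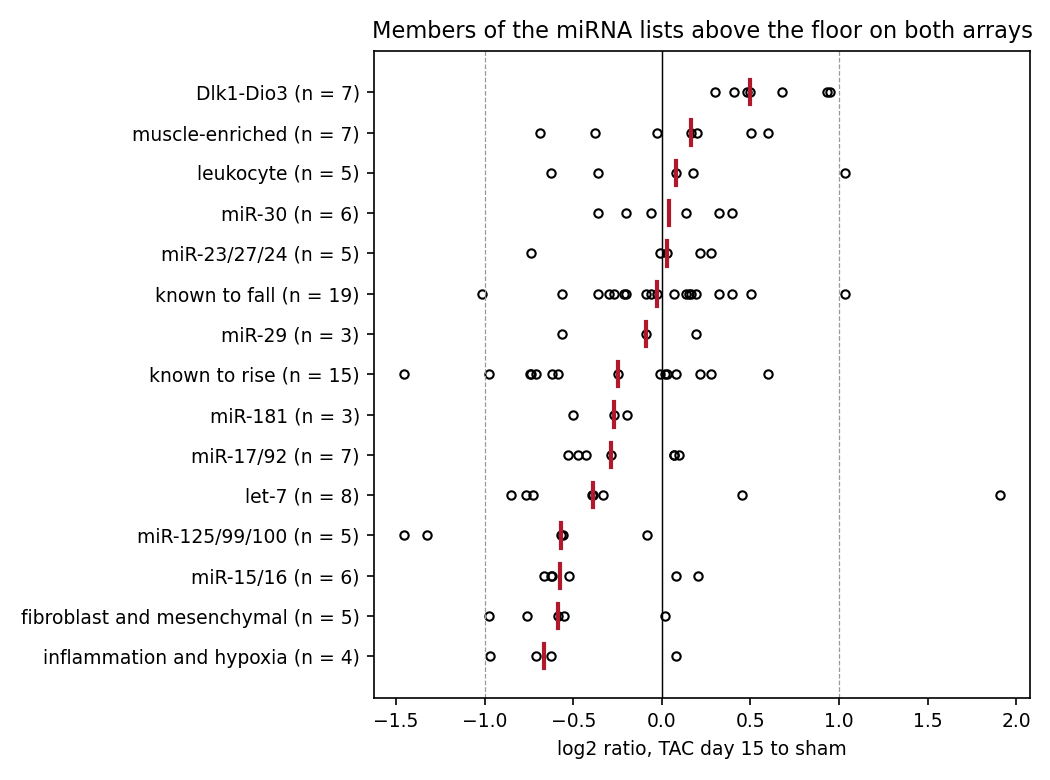
Log2 ratio of TAC day 15 to sham (horizontal axis) of every list member detected on both arrays (circles) with the median of each list (red bar), for the lists with 3 or more such members; n is the number of members. Dashed lines mark 2-fold. The Dlk1-Dio3 list is the 1 list whose members all lie above 0, where 49.3% of all 201 miRNAs lie. With spike-in scaling the list medians would move up together with the median of all miRNAs, which goes to 0.91.

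In the let-7 family 8 of 8 probes were detected on both arrays, with 1 member 2-fold or more higher and a median of -0.39. Beside let-7c only let-7e was above sham, at 0.45 ± 0.13. Let-7a, which differs from let-7c by 1 base, read -0.33 ± 0.17, with 2835, 2666, 3025 and 2796 units on sham and 2228, 1725, 1630 and 1379 units on TAC day 15. Let-7f read -0.73 ± 0.16, with every spot below those of sham. Let-7b, the other relative 1 base away, read -0.85 ± 0.90 and ranged from -1.68 to -0.10 between the block sets. Let-7d and let-7i both read -0.39 and miR-98 -0.77 ± 0.46. The family thus held the highest ratio of all and 6 members below sham; with spike-in scaling its median would be 0.40.

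The cell cycle inhibitors of the miR-15/16 family had a median of -0.57 over 6 members, none at 2-fold. Of the 5 with the seed AGCAGCA, miR-15b read -0.63 ± 0.45, miR-16 -0.53 ± 0.47, miR-195 -0.62 ± 0.52 and miR-497 -0.67 ± 0.18, whereas miR-322 read 0.20 ± 0.19. MiR-497, which lies 324 bases from miR-195, was the only member with every spot below sham. In blocks 19 to 36 the median of the family was -0.08 relative to all miRNAs. In the miR-17/92 family of growth-promoting clusters, 7 of 15 probes were detected on both arrays, none at 2-fold, with a median of -0.29. The median of the miR-23/27/24 family was 0.03 over 5 members. All 5 detected members of the miR-125/99/100 group read below sham, where 50.7% of all 201 stood. Their median was -0.57, with miR-100 at -0.56 ± 0.14 and miR-99a at -0.57 ± 0.24. MiR-26a read 0.16 ± 0.07 and miR-26b -0.30 ± 0.49, and of 3 members of the miR-181 family miR-181a was the lowest.

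Of miRNAs that answer to inflammation and low oxygen, 4 were detected on both arrays, none at 2-fold, with a median of -0.67. MiR-21 was level with sham, and the other 3 were below it. MiR-146b, induced by NF-kappa-B, read -0.97 ± 0.73, with 694, 833, 990 and 1235 units on sham and 22, 55, 1026 and 997 units on TAC day 15. MiR-146a, its relative with the same seed, read -0.62 ± 0.53, and miR-210, the miRNA of the hypoxia response, read -0.71 ± 0.51. These 3 read -1.53, -1.09 and -1.15 in blocks 1 to 18, where miR-21 read 0.26. The median of the list relative to all miRNAs was -1.15 there and -0.13 in blocks 19 to 36.

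The Dlk1-Dio3 region, an imprinted locus with many miRNAs expressed mostly in the embryo and the brain, had 7 of 51 probes detected on both arrays. Each of these 7 read above sham, none at 2-fold, with a median of 0.50. MiR-668 read 0.95 ± 0.10, with 68, 53, 100 and 49 units on sham and 294, 210, 254 and 260 units on TAC day 15. MiR-323 read 0.93 ± 0.50 and had 1 day 15 spot below 0. MiR-299 read 0.68 ± 0.16, miR-667 0.50 ± 0.11, miR-300-5p 0.48 ± 0.12, miR-329 0.41 ± 0.20 and miR-1193-3p 0.30 ± 0.26. MiR-127, miR-136 and miR-665 of the same region were above the floor on sham alone, and the median over all 51 probes with no floor was 0.07, so these 7 are only the members that passed the floor.

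The labelled tissue was checked against cell type markers. Heart muscle markers were detected at 7 of 8 probes, and their summed signal was 154206 units on sham and 137290 units on TAC day 15, with spots of miR-208 at the ceiling. Of 7 epithelial probes and the liver miRNA miR-122, 0 were detected on either array, and of the neuronal list 2 of 8 were, miR-124 at 0.41 and miR-9 at -0.41. The pancreatic miR-375 was above the floor on TAC day 15 alone, as given with the bounds, and miR-194 of intestine and kidney on sham alone. The endothelial miR-126 read -0.18 ± 0.25, and the smooth muscle miRNAs miR-143 and miR-145 read -0.19 ± 0.37 and 0.13 ± 0.05.

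Of the fibroblast and mesenchymal list, 5 of 8 probes were detected on both arrays, 4 of them below sham, with a median of -0.58 and summed signals over the list of 7672 units on sham and 4800 units on TAC day 15. MiR-199a-3p read -0.97 ± 0.85, miR-152 -0.76 ± 0.84 and miR-214 0.02 ± 0.30. In blocks 19 to 36 the median of the list was -0.06 relative to all miRNAs. The erythroid miRNAs miR-144 and miR-451, transcribed together, read 0.39 ± 0.45 and -0.12 ± 0.49. All 5 leukocyte probes were detected on both arrays, with a median of 0.08 and summed signals of 12002 units on sham and 14856 units on TAC day 15. Beside miR-150, miR-142-5p read 0.18 ± 0.37, miR-142-3p 0.08 ± 0.35, miR-223 -0.36 ± 0.46 and miR-146a -0.62 ± 0.53. The part of cell makeup in the ratio of miR-150 was not tested.

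Star strands made up 5 of the 10 miRNAs at 2-fold or more higher and 0 of the 5 lower. Of 242 star probes, 54 were detected on both arrays, 38 of them above sham, with a median ratio of 0.20. A further 5 passed the floor only on TAC day 15 and 15 only on sham, and the median over all 242 with no floor was 0.07. The 147 unstarred miRNAs had 61 above sham and a median of -0.17. Star strands were dimmer, with a median normalized level of 8.72 against 9.78. Among the dimmer 100 miRNAs the medians were 0.26 for 36 star strands and -0.22 for 64 unstarred ones, and among the brighter 101 they were 0.11 for 18 and -0.12 for 83. Scaling to spike-ins would place the star median at 1.22. In blocks 19 to 36 the star median was 0.07 above that of all miRNAs, and in blocks 1 to 18 it was 0.33 above.

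Both strands of a hairpin were detected on both arrays in 31 pairs. The star strand had the higher ratio in 23 of them, by a median over all pairs of 0.32, and 17 pairs had opposite signs. In 5 pairs the ratios were 2-fold or more apart. These were miR-181a-2* and miR-181a (1.43 and -0.50), miR-331* and miR-331 (1.10 and -0.47), miR-183* and miR-183 (1.19 and -0.06), miR-9* and miR-9 (0.65 and -0.41) and miR-24-2* and miR-24 (-0.99 and 0.21). Let-7c and let-7c-1* had nearly the same ratio, at 1.91 and 1.84.

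Neighbours on the chromosome had like ratios in some places and not in others. A copy of let-7f lies 603 bases from miR-98, and they read -0.73 and -0.77. MiR-497 and miR-195, 324 bases apart, read -0.67 and -0.62. Within 10 kb of miR-125a-5p inside Spaca6, miR-99b read -0.08 ± 0.42, let-7e 0.45 ± 0.13 and miR-3596c 0.71. MiR-125a-5p itself read -1.33, with -2.27 in blocks 1 to 18 and -0.42 in blocks 19 to 36. Around miR-450a* on the X chromosome, miR-542-3p read 0.08, miR-503 0.08 and miR-322 0.20, against 1.29. MiR-133a, 2444 bases from miR-3571, read 0.50. Of the cluster of miR-294, miR-291a-5p was the other member detected on both arrays and read 0.27. The gene model LOC103693508 spans a copy of let-7c and miR-125b-5p, which had the highest and the lowest ratio of the 201.

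Pairs of miRNAs that could pair with each other were found from sequence alone, by a reverse-complement run of 18 bases or more. Probes existed for 20 such pairs, and both members were detected on both arrays in 2, each cut from opposite strands of 1 place. The first was miR-1 and miR-3571. The second was let-7e at 0.45 and miR-3596c at 0.71, which share 21 bases.
miR-3596c: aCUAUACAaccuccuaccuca
let-7e: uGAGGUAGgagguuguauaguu
Both members of this second pair were above sham, whereas in the first miR-3571 was above and miR-1 level with sham. The reverse-complement partners of miR-338, miR-125b-5p and miR-378 were not detected on either array.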

How the data were processed

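Per the file headers, the deposited raw table holds for every spot a foreground intensity and the intensity left after the authors' subtraction of background; arrays are not scaled to each other. The authors' processed table holds ratios: each deposited ratio is a probe's median background-subtracted signal over 1 constant per array, here 1036.5 for sham and 991 for TAC day 15, found from the values within a relative deviation of 6.89e-07. These ratios are linear and not centred per miRNA, with medians of 0.192 and 0.284, and the sources used here do not give how the constants were set, nor the scanner or image software. The sham column was identified because the processed sham column is a multiple of it.

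Foregrounds were corrected by normexp (offset 50) against foreground minus subtracted signal and quantile scaled over rat miRNA spots of all 5 arrays, which shrinks ratios of dim probes, and the log2 values of 4 spots were averaged (limma 3.58.1, R 4.3.3). The floor was the median plus 3 scaled MAD of empty and negative-control spots. The pipeline was tested on a simulated array, a copy of sham with spot noise, an array-wide scale and known changes larger than 2-fold. No difference between block sets was added, and the changed miRNAs were well above the floor on sham. The test therefore does not bear on slide position, dim probes or ratios near 2-fold. With 1 array per group there was no test; a count at 2-fold stands in its place. Control probes and 1901 unnamed probes were left out.

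Named miRNAs were those at 2-fold or more, up to 5 bounds a side, up to 10 a side with no spot overlap, the 10 brightest, up to 3 per list (all of lists of 8 or fewer), a fixed set of cardiac miRNAs, and opposite strands and neighbours within 10 kb. Other list members, star pairs and neighbours are named within their groups only. Members and lists were chosen with earlier results of these data known. Alternatives changed background correction, scaling, spot averaging, floor and slide position. MiRNA arms were matched to RefSeq by name, 82 by hand.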

Additional observations from a re-analysis of the deposited data

Results flagged for a closer look

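MiR-150 was 2-fold or more above sham on TAC day 15 (log2 ratio 1.03) and 2-fold or more below it on TAC day 5 (-1.15) and day 10 (-1.24). The difference between the days was not tested, since each is 1 array, and all 3 ratios share the sham array. Its spots on TAC day 15 overlapped those of sham. The day 15 ratio was under 2-fold in blocks 19 to 36 (0.80), with median scaling (0.70) and with quantile scaling over all spots other than controls (0.87). It was at 2-fold or more in the other settings.

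Among 1901 probes without a name, which the comparison does not use, 389 were above the floor on both arrays. Of these, 22 (5.66%) read 2-fold or more above sham on TAC day 15 and 2 read 2-fold or more below it. Their median log2 ratio was 0.36, and their targets were not identified here. Of the 201 rat miRNAs, 10 (4.98%) read 2-fold or more above sham and 5 (2.49%) below, with a median of -0.01. The share above sham was thus similar, and the scaling was fitted to spots of rat miRNAs only.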

How the results depend on the processing

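No paired analysis was possible because there was a single array per group. The number of miRNAs at 2-fold or more, 15 (10 higher, 5 lower), was 60 (24 and 36) with plain background subtraction, 26 (8 and 18) with median scaling, 87 (87 and 0) with spike-in scaling, 44 (19 and 25) in blocks 1 to 18 alone and 34 (20 and 14) in the authors' processed values. The split was 7 and 14 with quantile scaling over all spots other than controls. Counts in the other settings were within 1.5 times the reported one, from 10 in blocks 19 to 36 alone to 21 with a normexp offset of 10. Spike-in scaling moved list medians with that of all miRNAs, to 1.06 (muscle-enriched), 0.62 (known to rise), 0.84 (known to fall), 0.40 (let-7), 0.62 (miR-29), 0.90 (miR-30), 0.32 (miR-15/16), 0.62 (miR-17/92), 0.83 (miR-23/27/24), 0.80 (miR-181), 1.57 (Dlk1-Dio3), 0.95 (leukocyte) and 1.22 (star strands). Median scaling moved miR-29 to -0.58. The Dlk1-Dio3 median was 0.97 with plain subtraction and 0.066 with no floor. Median scaling shifted the median of all miRNAs by -0.28 and quantile scaling over all spots other than controls by -0.20. Of 98 miRNAs named by rule and detected on both arrays, the ratio moved by more than the spot SD in 69 with spike-in scaling, 26 in the authors' processed values, 23 in blocks 1 to 18, 19 in blocks 19 to 36, 20 with median scaling, 13 with quantile scaling over all spots and 22 with plain subtraction. Of the 10 higher miRNAs, let-7c, miR-3571 and miR-181a-2* were past 2-fold in each of the 14 alternatives, and let-7c-1* and miR-675 in each except the floor of 10 MAD, which left them out. That floor left out miR-338 too, which was past 2-fold in the others except spike-in scaling. Scaling block sets separately, chosen after seeing the data, kept 14 of the 15 miRNAs. Bounds were not recomputed. The causes were not tested. Dim miRNAs near the floor are limited by the offset and by their signal over background, and each ratio by the single array per group.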
